A study of Homo sapiens with 8 samples.

Results

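The genes described here are 10 enzymes and carriers of the mitochondrial folate pathway, the route in which MTHFD2, the gene silenced in this study, has its place. They were chosen by name, as MTHFD2, MTHFD2L, MTHFD1L, SHMT2, ALDH1L2, SLC25A32, MTFMT, GCSH, AMT and GLDC, and all 10 were found among the 60666 gene identifiers of the deposited table. Of these, 9 passed the filter on low counts, as did 13493 genes in all, and GLDC did not. RNA was sequenced in bulk from MRC5, an established line of fibroblasts from human lung, in 4 groups of 2 libraries. The groups were shMTHFD2 with TGF-β1, shMock with TGF-β1, shMTHFD2 control and shMock control, where shMTHFD2 names cells with a short hairpin RNA against MTHFD2 and shMock the mock cells they were set against. TGF-β1 is a cytokine that turns fibroblasts into matrix-producing, contractile cells, stated as 4 ng with no volume and 24 h. That text stands on the control samples too, and the groups were taken from the titles. The titles name 1 shMTHFD2 line and 1 shMock line. An effect of MTHFD2 and any other difference between these lines therefore cannot be told apart. The genotype field of some shMTHFD2 samples names other genes, and the extraction text names another cell line. The labels do not say that the 2 libraries of a group came from separate cultures, so p-values describe only how far these libraries spread, and that spread may be technical.

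Mitochondrial one-carbon metabolism begins with serine. SHMT2 splits serine into glycine and a one-carbon unit held on tetrahydrofolate, a folate that SLC25A32 brings into the mitochondrion. MTHFD2 and its relative MTHFD2L oxidise that unit to formyl-tetrahydrofolate. MTHFD1L then releases it as formate, which leaves for the cytosol to serve purine and thymidylate synthesis. ALDH1L2 instead oxidises the formyl group to carbon dioxide and yields NADPH, and MTFMT uses it to formylate the initiator tRNA of mitochondrial translation. GLDC, AMT and GCSH are proteins of the glycine cleavage system, which feeds one-carbon units from glycine. MTHFD2 is known as an enzyme of embryonic and proliferating cells with low levels in most adult tissues, and the transcription factor ATF4 is known to drive several genes of the route.

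Libraries held 18162738 to 22221927 counts, and a gene with 3 counts stands at 0.135 to 0.165 CPM, the count scaled by library size. None of 8 fibroblast markers was at 0, and their summed level was 49502 to 53940 CPM with TGF-β1 and 30234 to 36358 CPM without it. The epithelial markers KRT19, SFTPC and NKX2-1, the endothelial markers PECAM1 and CDH5 and the immune marker CD3E were at 0 in every library. Summed levels of the 7 epithelial markers were 24.9 to 35.8 CPM over all groups. The 5 endothelial markers summed to 40.8 to 48.9 CPM with TGF-β1 and 96.8 to 110.2 CPM without it, and the 5 immune markers to 47.2 to 51.1 CPM in shMTHFD2 with TGF-β1, 53.5 to 58.6 CPM in shMock with TGF-β1, 75.0 to 76.4 CPM in shMTHFD2 control and 101.0 to 106.3 CPM in shMock control. Counts from the mitochondrial genome took 3.83 to 7.74% of a library, with the 2 highest shares in shMTHFD2 control. The part of these differences in the results was not tested.

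Upstream sequence helps to place the genes, and 6 of the 10 have a window in the RefSeq promoter table (GRCh38.p14). The 250 bases before the first listed start were searched on both strands for TGATGNAAT, a form of the composite element bound by ATF4 with C/EBP partners, for CACGTG, the E-box, and for CAGACA, a SMAD-binding form. TGATGNAAT occurs in 0.888% of all 35116 such windows, CACGTG in 6.34% and CAGACA in 13.6%. The windows shown are MTHFD2, which had the largest TGF-β1 response of the set, MTHFD1L, the one window with a TGATGNAAT match, and GCSH, the gene of the set that fell with TGF-β1 in shMTHFD2 cells. Capitals mark the matches. MTHFD2 is cut at its GENCODE 29 start and lies at chr2:74198365-74198561 on the plus strand. MTHFD1L lies at chr6:150866236-150866485 on the plus strand, and GCSH, also cut at its GENCODE 29 start, at chr16:81096426-81096645 on the minus strand.
MTHFD2: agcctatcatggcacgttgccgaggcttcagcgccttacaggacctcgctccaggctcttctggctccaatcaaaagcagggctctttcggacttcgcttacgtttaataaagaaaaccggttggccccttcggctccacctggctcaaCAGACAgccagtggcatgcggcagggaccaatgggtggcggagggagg
MTHFD1L: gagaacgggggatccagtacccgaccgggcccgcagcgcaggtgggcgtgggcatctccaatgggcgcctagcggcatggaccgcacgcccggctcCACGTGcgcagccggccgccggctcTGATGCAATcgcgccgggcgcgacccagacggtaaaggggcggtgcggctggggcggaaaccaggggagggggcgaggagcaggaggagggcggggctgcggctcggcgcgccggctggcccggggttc
GCSH: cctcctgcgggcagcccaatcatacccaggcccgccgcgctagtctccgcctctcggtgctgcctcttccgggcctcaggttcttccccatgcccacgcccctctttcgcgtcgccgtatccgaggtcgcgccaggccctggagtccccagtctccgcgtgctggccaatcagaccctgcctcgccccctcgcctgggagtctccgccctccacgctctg
The MTHFD2 match is CAGACA, with 95 bases between it and the RefSeq start. In MTHFD1L, CACGTG and TGATGCAAT stand 148 and 120 bases before the start, and the matches do not overlap each other. The MTHFD1L window is the first of 4 listed starts and lies downstream of the first exon of the longest transcripts. An alternative MTHFD1L exon of 55 bases (chr6:150866333-150866387) lies within it and holds TGATGCAAT. The MTHFD2 window overlaps an exon of AC073263.2 on the opposite strand. MTHFD2L had CAGACA on the minus strand, and the windows of GCSH, AMT and GLDC held none of the 3 motifs. The MTHFD2L window (chr4:74157868-74158117) is the first of 2 listed starts and lies inside the gene, downstream of its GENCODE 29 start at 74114174. The AMT window also lies inside its gene and overlaps exons of AMT and of AC104452.1 on the same strand. A match describes letters only, and no binding was measured in these cells.

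MTHFD2 (ENSG00000065911, chr2:74198562-74217565, plus strand), the dehydrogenase and cyclohydrolase of the route, was lowered by its hairpin and raised by TGF-β1 in both lines. It stood at 93.8 and 91.9 CPM in shMTHFD2 with TGF-β1, 256.0 and 257.7 CPM in shMock with TGF-β1, 14.9 and 18.7 CPM in shMTHFD2 control, and 58.8 and 57.1 CPM in shMock control. All 4 groups were separate, and the activated knockdown cells lay above the resting control cells. The knockdown made it 2.77-fold lower with TGF-β1, a log2 fold change of −1.47 with an SE of 0.09 (edgeR, adjusted p = 8.7e-07). Without TGF-β1 it was 3.46-fold lower (−1.79 ± 0.10, edgeR adjusted p = 3.51e-07), and further log2 fold changes are given likewise as value ± SE. TGF-β1 raised the gene 5.54-fold in shMTHFD2 cells (2.47 ± 0.10, edgeR adjusted p = 8.31e-11) and 4.43-fold in shMock cells (2.15 ± 0.09, edgeR adjusted p = 9.51e-11). The opposite-strand gene SLC4A5 shares 27.2% of the exon bases of MTHFD2 and had 4 to 13 counts, and the 7 annotated MTHFD2 pseudogenes had none. The use of strand in counting is not given in the sources used here, so the level of MTHFD2 is uncertain to that extent.

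In bulk RNA, less RNA of a gene per cell and fewer cells that carry it cannot be told apart, which holds for every level given here. The activated knockdown cells were compared with the resting control cells in a comparison added after the data were seen. MTHFD2 was 1.60-fold higher there (0.68 ± 0.09, edgeR adjusted p = 3.32e-05). Measured from shMock control, the mean MTHFD2 level in shMTHFD2 with TGF-β1 had covered 17.5% of the distance that shMock cells covered with TGF-β1. The same share was 56.9% for ALDH1L2, 57.9% for SLC25A32, 63.7% for MTHFD1L and 73.9% for SHMT2, which are descriptions with no test.

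**Figure D1:**
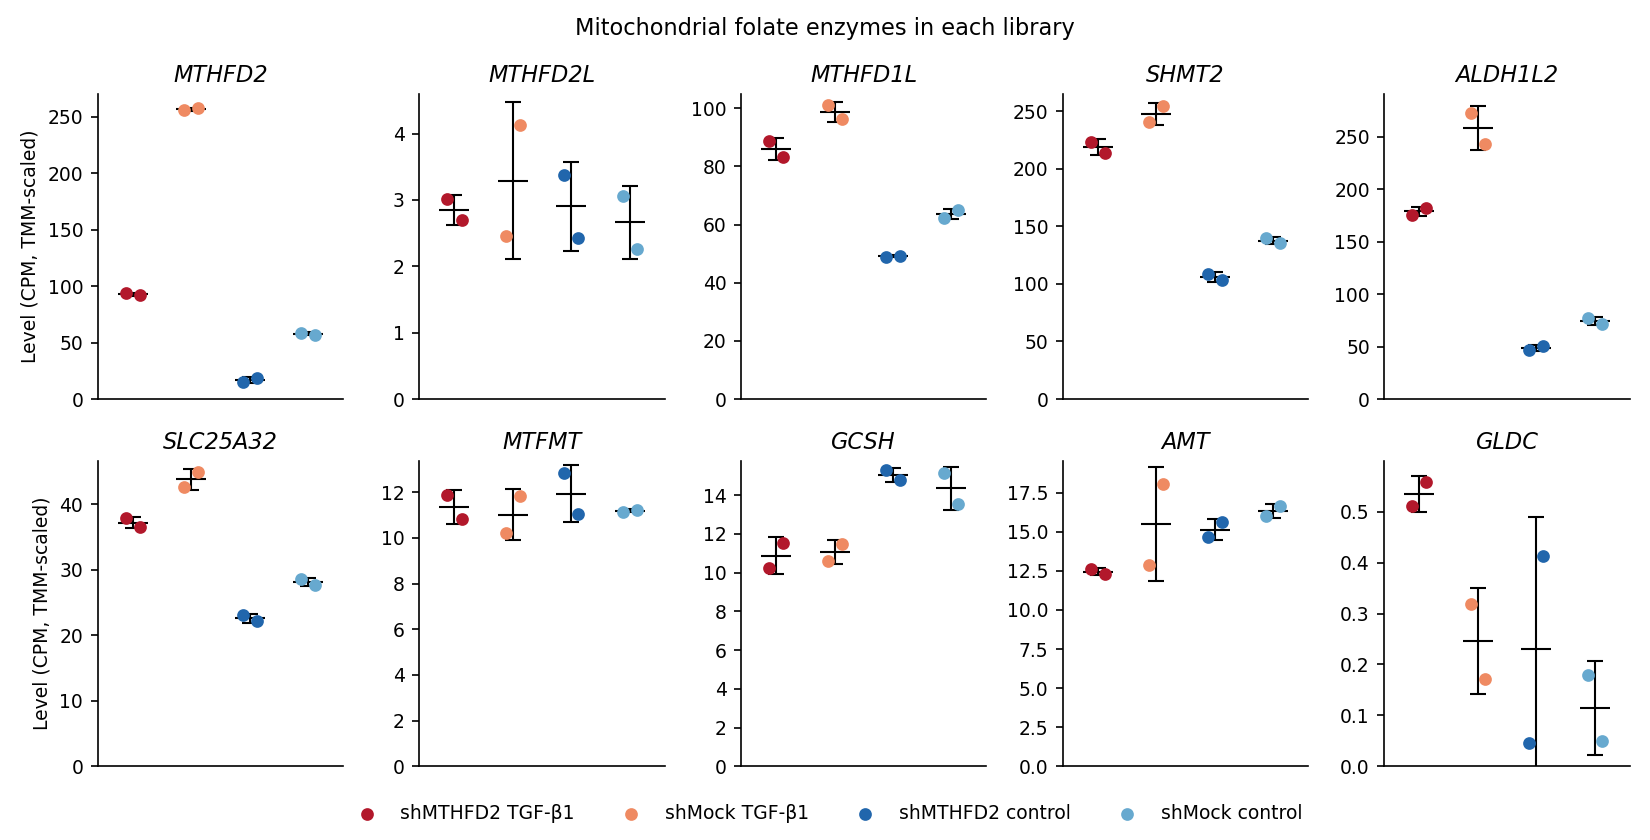
Level of each of the 10 genes in CPM on a linear axis from 0, with a point for each library, a line for the mean and bars for the SD of 2 libraries (the SD of GLDC in shMTHFD2 control runs past 0 and is cut there). MTHFD2, MTHFD1L, SHMT2, ALDH1L2 and SLC25A32 stand higher with TGF-β1 in both lines, and GCSH stands lower.

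SHMT2 (ENSG00000182199, chr12:57229327-57234935, plus strand), the enzyme that takes the one-carbon unit from serine, followed TGF-β1 more than the hairpin. It stood at 223.4 and 213.9 CPM in shMTHFD2 with TGF-β1, 240.6 and 254.3 CPM in shMock with TGF-β1, 108.9 and 103.0 CPM in shMTHFD2 control, and 139.4 and 135.3 CPM in shMock control. All 4 groups were separate. TGF-β1 raised it 2.06-fold in shMTHFD2 cells (1.05 ± 0.08, edgeR adjusted p = 7.05e-08) and 1.80-fold in shMock cells (0.85 ± 0.08, edgeR adjusted p = 5.3e-07). In resting cells the knockdown lowered it 1.30-fold (−0.37 ± 0.08, edgeR adjusted p = 0.00585). With TGF-β1 the difference was −0.18 ± 0.08 (edgeR adjusted p = 0.145), and among 17 alternatives it passed the threshold only with offsets for GC content and length (−0.27, edgeR adjusted p = 0.0127).

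SLC25A32 (ENSG00000164933), the folate carrier of the inner membrane, gave 37.8 and 36.6 CPM in shMTHFD2 with TGF-β1, 42.7 and 44.9 CPM in shMock with TGF-β1, 23.1 and 22.1 CPM in shMTHFD2 control, and 28.6 and 27.7 CPM in shMock control. The 4 groups did not overlap. TGF-β1 raised it 1.64-fold in shMTHFD2 cells (0.72 ± 0.10, edgeR adjusted p = 5.84e-05) and 1.55-fold in shMock cells (0.64 ± 0.10, edgeR adjusted p = 0.000121). The knockdown differences of −0.23 ± 0.10 with TGF-β1 and −0.32 ± 0.10 in resting cells missed the threshold (edgeR adjusted p = 0.13 and 0.0562). The gene shares 11.1% of its exon bases with DCAF13 on the opposite strand, which had 727 to 1015 counts, and 69.7% with a same-strand gene of 0 to 15 counts. Since the use of strand in counting is not given in the sources used here, its level is uncertain to that extent.

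MTHFD1L (ENSG00000120254, chr6:150865549-151101887, plus strand), the synthetase that frees formate, moved in the same directions as SHMT2. It had 88.7 and 83.3 CPM in shMTHFD2 with TGF-β1, 101.2 and 96.2 CPM in shMock with TGF-β1, 48.9 and 49.3 CPM in shMTHFD2 control, and 62.4 and 64.9 CPM in shMock control. No group overlapped another. TGF-β1 raised it 1.75-fold in shMTHFD2 cells (0.81 ± 0.08, edgeR adjusted p = 2.06e-06) and 1.55-fold in shMock cells (0.63 ± 0.08, edgeR adjusted p = 1.79e-05). In resting cells the knockdown difference was −0.37 ± 0.08 (edgeR adjusted p = 0.00791), and with TGF-β1 it was −0.20 ± 0.08 (edgeR adjusted p = 0.116). The resting calls of MTHFD1L and SHMT2 were lost without the library labelled 2 of either group. Without shMock control 2 the adjusted p was 0.113 for MTHFD1L and 0.0513 for SHMT2, and without shMTHFD2 control 2 it was 0.0589 and 0.074.

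ALDH1L2 (ENSG00000136010, chr12:105019784-105084577, minus strand), the enzyme that oxidises formyl groups, was the only gene of the set beside MTHFD2 that passed the test as lower in the knockdown under both conditions. It stood at 175.8 and 182.2 CPM in shMTHFD2 with TGF-β1, 273.0 and 243.4 CPM in shMock with TGF-β1, 46.7 and 50.7 CPM in shMTHFD2 control, and 77.4 and 71.6 CPM in shMock control. Every group lay apart from the others. TGF-β1 raised it 3.68-fold in shMTHFD2 cells (1.88 ± 0.09, edgeR adjusted p = 4.1e-10) and 3.46-fold in shMock cells (1.79 ± 0.09, edgeR adjusted p = 4e-10). The knockdown lowered it 1.44-fold with TGF-β1 (−0.53 ± 0.08, edgeR adjusted p = 0.000796) and 1.53-fold in resting cells (−0.61 ± 0.09, edgeR adjusted p = 0.000429). Both calls held under each of the 17 alternative settings that were run. It shares 1.70% of its exon bases with C12orf45 on the opposite strand, which had 64 to 128 counts.

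The other 5 genes gave lower levels, and those tested among them gave smaller differences with TGF-β1. GCSH (ENSG00000140905, chr16:81081938-81096425, minus strand), the lipoyl-bearing carrier protein of glycine cleavage, had 10.2 and 11.5 CPM in shMTHFD2 with TGF-β1, 10.6 and 11.5 CPM in shMock with TGF-β1, 15.3 and 14.8 CPM in shMTHFD2 control, and 15.1 and 13.6 CPM in shMock control. The 4 libraries with TGF-β1 were all below the 4 without it. The difference was −0.47 ± 0.15 in shMTHFD2 cells (edgeR adjusted p = 0.0312) and −0.38 ± 0.15 in shMock cells (edgeR adjusted p = 0.0592). The call in shMTHFD2 cells was lost in DESeq2 (adjusted p = 0.0541) and without any 1 of the 4 libraries compared, with adjusted p of 0.169 and 0.0512 without shMTHFD2 TGF-β1 1 and 2, and 0.113 and 0.0812 without shMTHFD2 control 1 and 2. In shMock cells GCSH was called with library totals (adjusted p = 0.0128), upper-quartile factors (0.0303) and GC and length offsets (0.0228). Its pseudogenes GCSHP5 and GCSHP3 drew 191 and 21 counts over the 8 libraries, so its level is uncertain to that extent.

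MTFMT (ENSG00000103707, chr15:65001512-65029639, minus strand), the formyltransferase of the mitochondrial initiator tRNA, had 11.9 and 10.8 CPM in shMTHFD2 with TGF-β1, 10.2 and 11.8 CPM in shMock with TGF-β1, 12.8 and 11.1 CPM in shMTHFD2 control, and 11.1 and 11.2 CPM in shMock control. Its groups overlapped in each comparison, and its log2 fold changes in the 4 comparisons of groups within a line or a condition were −0.07 to 0.10, with SE of 0.16 each. MTHFD2L (ENSG00000163738, chr4:74114174-74303099, plus strand), which catalyses the same reactions as MTHFD2, had only 46 to 73 counts in a library. It gave 3.01 and 2.69 CPM in shMTHFD2 with TGF-β1, 2.45 and 4.13 CPM in shMock with TGF-β1, 3.38 and 2.43 CPM in shMTHFD2 control, and 3.05 and 2.27 CPM in shMock control. Its groups overlapped throughout, and with an SE of 0.35 on each difference between 2 groups a change of moderate size was not detectable at this depth.

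AMT (ENSG00000145020, chr3:49416775-49422753, minus strand), the aminomethyltransferase of glycine cleavage, had 12.6 and 12.3 CPM in shMTHFD2 with TGF-β1, 12.9 and 18.1 CPM in shMock with TGF-β1, 14.7 and 15.6 CPM in shMTHFD2 control, and 16.0 and 16.7 CPM in shMock control. The 2 knockdown libraries lay below the 2 shMock libraries in each condition, by little. None of its differences passed the threshold in the 5 planned comparisons, and the knockdown differences were −0.31 ± 0.16 with TGF-β1 and −0.11 ± 0.16 without it. Without shMock TGF-β1 1 or 2 the difference with TGF-β1 was −0.53 or −0.05. A same-strand gene, ENSG00000283189, shares 63.1% of the exon bases of AMT and had 7.19 to 35.8 CPM. With both genes added, the sums were 35.4 and 31.9 CPM in shMTHFD2 with TGF-β1, 20.1 and 38.3 CPM in shMock with TGF-β1, 43.5 and 51.4 CPM in shMTHFD2 control, and 33.3 and 34.7 CPM in shMock control. In resting cells the summed difference was 0.48 (no test), the opposite sign of that of AMT alone. With TGF-β1 it was 0.28 (no test), but the groups overlapped and the sign rested on shMock TGF-β1 1, where the neighbour had 7.19 CPM, against 20.2 CPM in shMock TGF-β1 2.

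GLDC (ENSG00000178445, chr9:6532464-6645783, minus strand), the decarboxylase of glycine cleavage, had 10 and 11 counts in shMTHFD2 with TGF-β1, 6 and 3 in shMock with TGF-β1, 1 and 8 in shMTHFD2 control, and 4 and 1 in shMock control. It reached at most 0.559 CPM, and in 2 libraries it lay below the level of 3 counts. It was not tested.

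Read across the set, TGF-β1 raised 5 of 9 tested genes in shMTHFD2 cells and lowered 1, GCSH, with a median of 0.72 on the log2 scale, against −0.01 over all tested genes. Of all tested genes 23.8% were called there, 12.8% higher and 11% lower. In shMock cells it raised the same 5 genes, MTHFD2, ALDH1L2, SHMT2, SLC25A32 and MTHFD1L, and lowered none, with a median of 0.63, against −0.02 over all tested genes. There 35.4% of all genes were called, 17.3% higher and 18.1% lower. These splits move with scaling. With library totals alone, 1222 genes were higher and 2455 lower in shMTHFD2 cells, against 1725 and 1489 with trimmed-mean factors, and with upper-quartile factors 1417 were higher and 1954 lower. In shMock cells library totals gave 1570 higher and 3932 lower, against 2333 and 2443. Library totals put the median of all genes at −0.12 in shMTHFD2 cells and −0.16 in shMock cells, and the 5 genes were still called higher in both lines.

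The knockdown lowered 2 of the 9 tested genes with TGF-β1, MTHFD2 and ALDH1L2, where 13.1% of all genes were called, 8.23% lower and 4.83% higher. In resting cells it lowered 4, those 2 with SHMT2 and MTHFD1L, where 11.4% were called, 8.19% lower and 3.25% higher. None was called higher in either condition by edgeR or by DESeq2, and at an unadjusted p under 0.05 the 5 genes that TGF-β1 raised were lower in each condition, where 3661 genes of all tested had such a p with TGF-β1 and 3379 without it. The median over the 9 was −0.20 with TGF-β1, against 0.01 over all tested genes, and −0.32 without it, against −0.01. MTHFD2 is the target of the hairpin and is part of all these counts and medians and of the average below. Its own lower call is the aim of the hairpin and tells nothing of the other genes. Beside MTHFD2, ALDH1L2 alone was called with TGF-β1, and ALDH1L2, SHMT2 and MTHFD1L in resting cells. Of the 8 fibroblast markers, THY1 alone was called in the knockdown with TGF-β1, as lower (−0.42, edgeR adjusted p = 0.00437), with a list median of 0.03. In resting cells 3 of the 8 were lower and none higher, with a list median of −0.10. Among these were THY1 (−0.63, edgeR adjusted p = 0.000242) and VIM (−0.32, edgeR adjusted p = 0.0291). The VIM call was lost with library totals (edgeR adjusted p = 0.0584) and in 5 of 8 fits with 1 library left out. Over these 8 fits its value was −0.38 to −0.23. CD68, the only 1 of 5 immune markers that passed the filter, was lower in resting cells (−0.45, edgeR adjusted p = 0.0025). A same-strand gene of 148 to 243 counts shares 81.7% of the exon bases of CD68, so its level is uncertain to that extent. The part of these markers in the knockdown results was not tested. Over all genes, library totals gave 1338 higher and 717 lower with TGF-β1, against 652 and 1110 with trimmed-mean factors. In resting cells they gave 755 higher and 740 lower, against 438 and 1105. Averaged over both conditions, in a comparison added after the data were seen, 5 of 9 were lower, where 20.5% of all genes were called, 13% lower and 7.49% higher. The fifth was SLC25A32 (−0.28 ± 0.07, edgeR adjusted p = 0.0111), a call that library totals ended (adjusted p = 0.0575). Library totals gave 2136 genes higher and 1219 lower in that average, against 1010 and 1753.

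**Figure D2:**
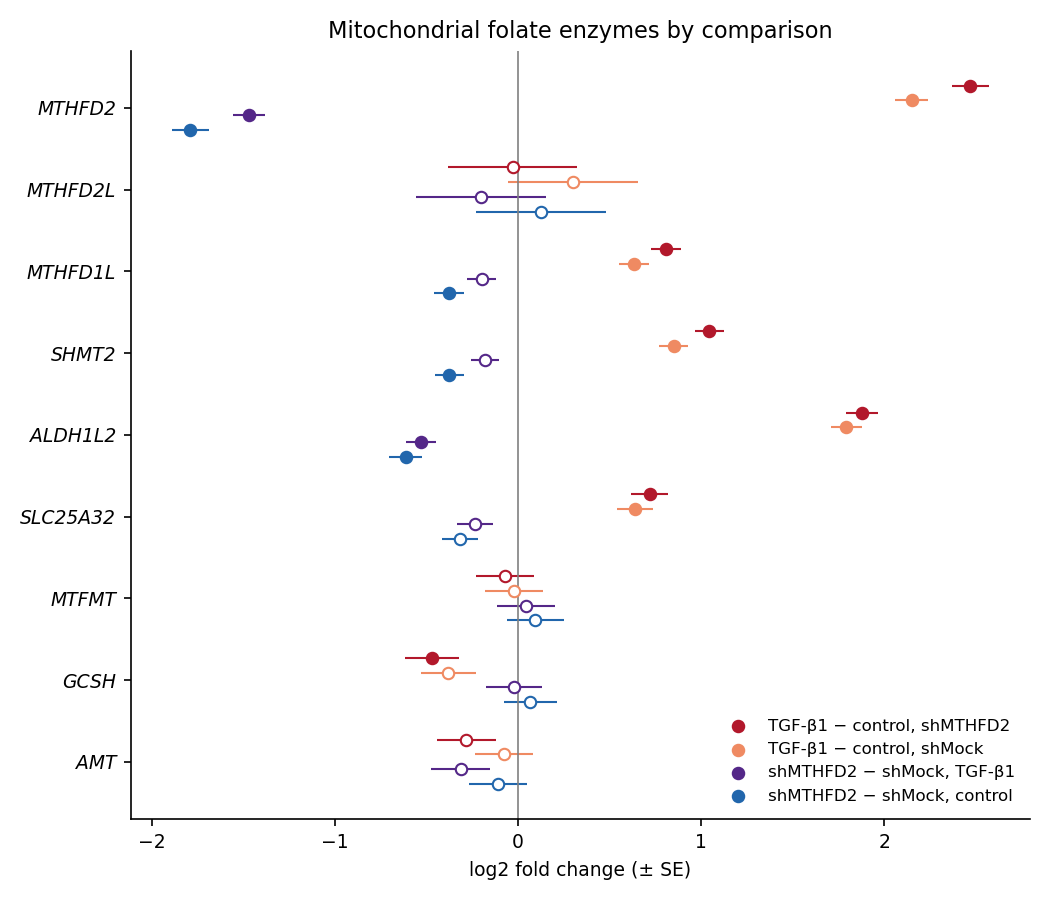
Log2 fold changes with SE of the 9 tested genes in 4 comparisons, the first group named minus the second, filled where the adjusted p of edgeR was under 0.05 and open otherwise. MTHFD2 spans −1.79 to 2.47, ALDH1L2 is filled in all 4 comparisons, and MTFMT and MTHFD2L have open points throughout.

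Whether the hairpin changed the TGF-β1 response itself was tested as an interaction, the response in shMTHFD2 cells minus that in shMock cells. None of the 9 genes passed, by edgeR or by DESeq2, and MTHFD2 alone had an unadjusted p under 0.05, as did 1718 genes in all. Its difference was 0.32 ± 0.13 on the log2 scale (edgeR adjusted p = 0.347, and 0.228 to 0.655 over the 16 alternatives), and it was 0.13 without shMTHFD2 control 1 and 0.46 without shMTHFD2 control 2. The other responses differed by −0.33 to 0.20, with 0.20 ± 0.11 for SHMT2, 0.18 ± 0.11 for MTHFD1L, 0.09 ± 0.12 for ALDH1L2 and 0.08 ± 0.14 for SLC25A32. Of all tested genes 0.0889% passed, 0.0371% higher and 0.0519% lower, and DESeq2 called 105 genes. A missed threshold does not show that the responses were equal.

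Against resting shMock cells, the activated knockdown cells had 5 of the 9 genes higher and 1 lower, where 32.4% of all genes were called, 15.4% higher and 17% lower. ALDH1L2 was 2.40-fold (1.26 ± 0.09), SHMT2 1.59-fold (0.67 ± 0.08), MTHFD1L 1.35-fold higher (0.43 ± 0.08), and SLC25A32 was higher by 0.40 ± 0.10, beside the value of MTHFD2 above. GCSH was lower (−0.40 ± 0.15, edgeR adjusted p = 0.0499). That call was lost in 14 of 17 alternative settings, DESeq2 and the omission of any 1 of the 8 libraries among them, with adjusted p of 0.0289 to 0.248 over all 17.

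Levels can be compared between genes only per length, here as TPM, in which counts are divided by the length of a gene's exon union and scaled to the same total in every library. In shMTHFD2 with TGF-β1 the order was SHMT2 at 186.6 TPM, ALDH1L2 at 86.9, MTHFD2 at 78.7, MTHFD1L at 70.7 and SLC25A32 at 42.0, each range apart from the next. In shMock with TGF-β1 MTHFD2 led at 201.5 TPM, with a range that overlapped that of SHMT2 at 195.5, before ALDH1L2 at 115.9, MTHFD1L at 75.1 and SLC25A32 at 45.8, and with overlapping ranges further down for MTFMT at 12.3, GCSH at 11.5 and AMT at 10.3. In shMTHFD2 control SHMT2 led at 85.2 TPM, MTHFD1L followed at 38.0, and MTHFD2 came seventh at 13.4 TPM, within the range of MTFMT at 13.5. In shMock control SHMT2 led at 110.8 TPM, and MTHFD1L at 49.5 overlapped MTHFD2 at 46.4 before ALDH1L2 at 34.1. The knockdown thus moved MTHFD2 down the order in both conditions, and AMT, MTHFD2L and GLDC came last in all 4 groups, in that order. Exon bases shared with other genes were not taken out of the lengths. The place of AMT is uncertain, since ENSG00000283189 shares 63.1% of its exon bases and had 55.8 to 229.5% of its CPM. On the longest transcript in place of the exon union, MTHFD2 stood at 162.9 TPM in shMock with TGF-β1, below SHMT2 at 204.8. In shMTHFD2 with TGF-β1 that length put MTHFD1L at 72.1 TPM and ALDH1L2 at 71.7, with overlapping ranges, before MTHFD2 at 63.0, and in shMock control MTHFD1L at 51.2 lay apart from MTHFD2 at 37.7.

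**Figure D3:**
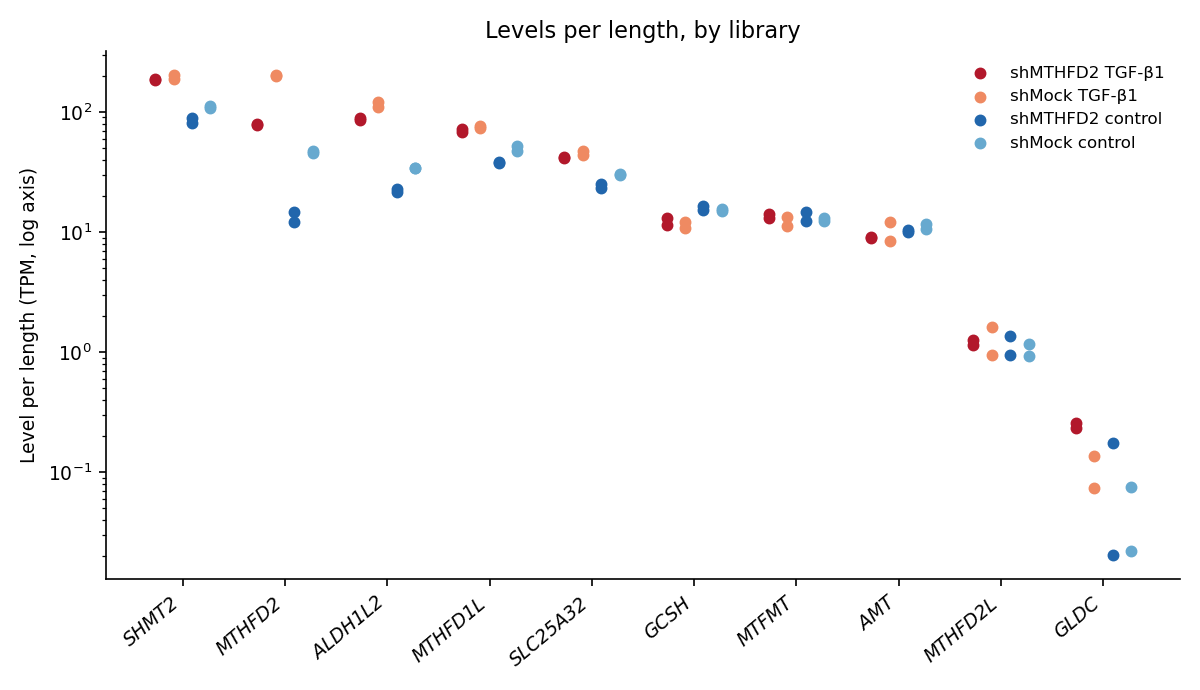
TPM of each gene in each of the 8 libraries on a log axis, with genes ordered by their mean over groups. SHMT2 is on top in 3 of 4 groups, and MTHFD2 spreads from 12.1 TPM in shMTHFD2 control to 204.1 TPM in shMock with TGF-β1.

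Ratios of TPM within a library, chosen after the values were seen, set the route against itself and against its cytosolic counterparts. MTHFD2 over SHMT2 was 0.417 and 0.427 in shMTHFD2 with TGF-β1, 1.06 and 1.01 in shMock with TGF-β1, 0.136 and 0.180 in shMTHFD2 control, and 0.419 and 0.420 in shMock control. The 2 activated knockdown libraries and the 2 resting control libraries lay within 0.417 to 0.427, with higher levels of both genes in the activated knockdown cells. SHMT2 over SHMT1, the cytosolic form of the same enzyme, was 37.0 and 38.4 in shMTHFD2 with TGF-β1, 47.5 and 46.3 in shMock with TGF-β1, 15.9 and 13.0 in shMTHFD2 control, and 13.99 and 14.7 in shMock control. Both groups with TGF-β1 lay above both groups without it. MTHFD1L over MTHFD1, the cytosolic enzyme that runs the formate step in reverse, averaged 4.11 in shMTHFD2 with TGF-β1, 4.86 in shMock with TGF-β1, 2.10 in shMTHFD2 control and 2.43 in shMock control.

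**Figure D4:**
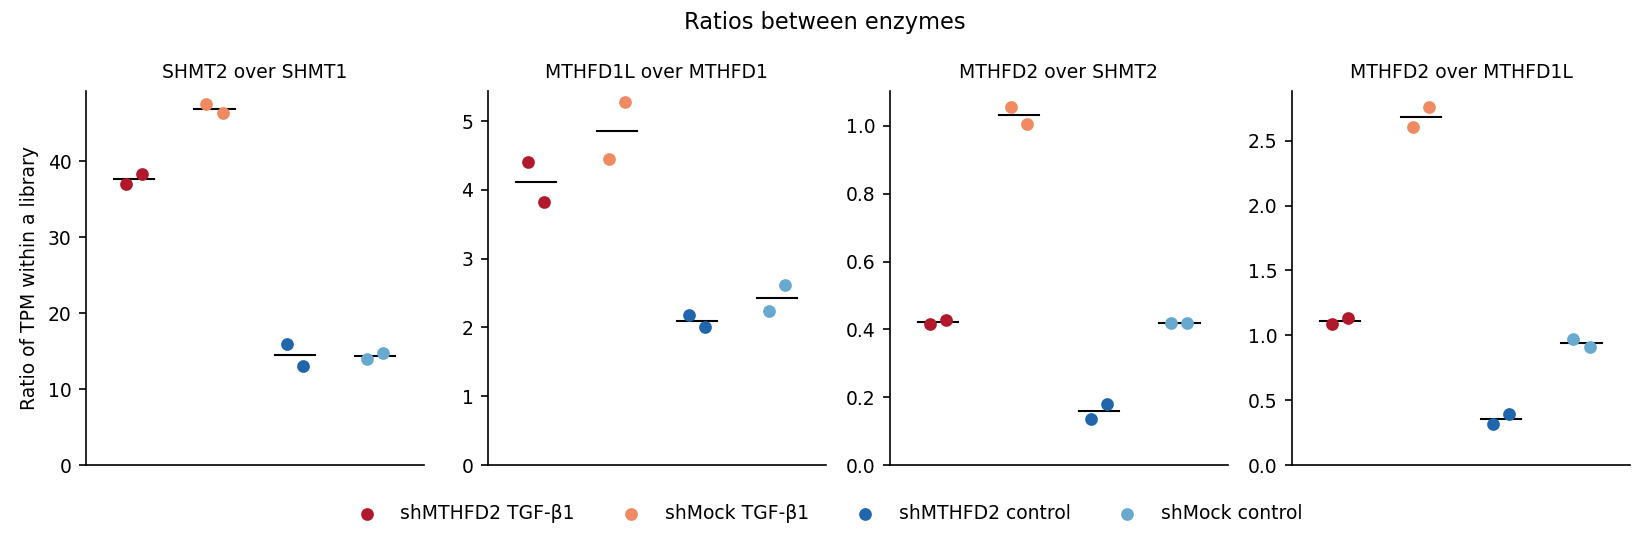
Ratio of TPM between pairs of enzymes in each library on linear axes from 0, with a line for the group mean. SHMT2 over SHMT1 lies at 37.0 to 47.5 with TGF-β1 and at 13.0 to 15.9 without it, and MTHFD2 over SHMT2 is alike in shMTHFD2 with TGF-β1 and shMock control.

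Of 15 genes of the cytosolic folate and methionine cycle, 13 were tested, and TGF-β1 raised none and lowered 3 in shMTHFD2 cells and 6 in shMock cells, with medians of −0.27 and −0.36. The shares called lower over all genes were 11% and 18.1% in these comparisons. MAT2A, which makes S-adenosylmethionine, fell by 0.63 on the log2 scale in shMTHFD2 cells (edgeR adjusted p = 0.000575). In shMock cells SHMT1 fell by 0.86, as did TYMS, the thymidylate synthase (edgeR adjusted p = 0.000741 and 0.00104). TYMS shares 39.1% of its exon bases with ENOSF1 on the opposite strand, which had 202 to 1158 counts, and is uncertain. MAT2A shares 12.4% with GGCX on the opposite strand, which had 760 to 1093 counts. Of the 13, the knockdown raised 1 and lowered 1 with TGF-β1, where 4.83% of all genes were called higher and 8.23% lower. In resting cells it raised 1 and lowered none, where 3.25% were called higher and 8.19% lower. MTRR, which reactivates methionine synthase, was lower with TGF-β1 (−0.45, edgeR adjusted p = 0.0474), and MTR, the methionine synthase, was higher in resting cells (0.30, edgeR adjusted p = 0.043). Both calls were lost in several alternatives, with adjusted p up to 0.285 for MTRR and 0.332 for MTR when 1 library was left out. ALDH1L1, the cytosolic relative of ALDH1L2, had no counts in any library.

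Few calls were made for the steps around the pathway inside the mitochondrion. None of the 4 carriers of serine and glycine passed in any planned comparison, and SFXN1, the serine carrier, was lower in the averaged knockdown (−0.29 ± 0.08, edgeR adjusted p = 0.0244), a call lost with library totals (0.0846) and without library 1 of any of the 4 groups (0.0601 to 0.103). The 3 tested partners of glycine cleavage and lipoyl synthesis and the 6 tested mitochondrial folate users and formyl-methionine genes had no call in any of the 7 comparisons. Over all tested genes the share called ran from 0.0889% in the interaction to 35.4% for TGF-β1 in shMock cells. Lists of 3 to 6 genes are too short to be told apart from such shares. With 1 library left out, at most 1 of the carriers and at most 1 of the folate users passed in a comparison, and several of these genes had few counts, so missed calls do not show that they were unchanged. For folate uptake and retention, 4 of 6 genes were tested. GGH, the hydrolase that trims folate tails, was lower in the knockdown with TGF-β1 (−0.49 ± 0.14, edgeR adjusted p = 0.0306) and without it (−0.59 ± 0.14, edgeR adjusted p = 0.0114). The first call was lost without any 1 of the 4 libraries compared (adjusted p of 0.0531 to 0.168), and the second without shMock control 2 (0.208) or either shMTHFD2 control library (0.0758 and 0.0603). SLC19A1, the reduced folate carrier, was lower with TGF-β1 in shMock cells (−0.77 ± 0.19, edgeR adjusted p = 0.00453), although it shares 14.01% of its exon bases with COL18A1 on the opposite strand, a gene of 5732 to 12980 counts.

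Upstream of the route, the 3 enzymes of serine synthesis all rose with TGF-β1 in both lines, where 12.8% of all genes were called higher in shMTHFD2 cells and 17.3% in shMock cells. In shMock cells the count was 2 without shMock TGF-β1 1. PSPH, the phosphatase of the last step, rose by 0.89 ± 0.14 in shMTHFD2 cells and 0.62 ± 0.14 in shMock cells, and is named after its values were seen. PSAT1, the aminotransferase, rose by 2.02 ± 0.09 in shMTHFD2 cells and 1.76 ± 0.09 in shMock cells, and PHGDH, which commits glycolytic carbon to serine, by 1.58 ± 0.09 and 1.05 ± 0.09. In the knockdown 1 of the 3 was lower with TGF-β1, PSAT1 (−0.50 ± 0.08), and 2 in resting cells, PSAT1 (−0.76 ± 0.09) and PHGDH (−0.69 ± 0.09). Of 10 genes of the ATF4 pathway, TGF-β1 raised 9 in shMTHFD2 cells and 9 in shMock cells, and lowered CEBPB in shMock cells (−0.54 ± 0.14), a call lost with GC and length offsets (adjusted p = 0.0869). ASNS, the asparagine synthetase, rose by 2.40 ± 0.11 in shMTHFD2 cells and 2.36 ± 0.11 in shMock cells. It shares 44.6% of its exon bases with a same-strand gene of 33 to 143 counts. DDIT3, also in the list, shares 27.2% with MARS on the opposite strand, which had 2516 to 5169 counts. Both levels are uncertain to that extent. The knockdown lowered 4 of the 10 with TGF-β1 and 7 in resting cells (4 to 8 when 1 library was left out), where 8.23% and 8.19% of all genes were called lower, with ATF3, a stress-induced transcription factor, at −0.84 ± 0.11 and −1.04 ± 0.12. SESN2, a stress-induced regulator of growth signalling, was higher in the averaged knockdown (0.21 ± 0.06, edgeR adjusted p = 0.034), a call lost without either shMTHFD2 TGF-β1 library or library 1 of any other group (adjusted p of 0.0741 to 0.135). Beside these, the endothelial markers KDR and TEK fell with TGF-β1 by 1.78 and 1.22 in shMTHFD2 cells and by 2.29 and 1.10 in shMock cells, and the part of other cell types in any list was not tested.

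**Figure D5:**
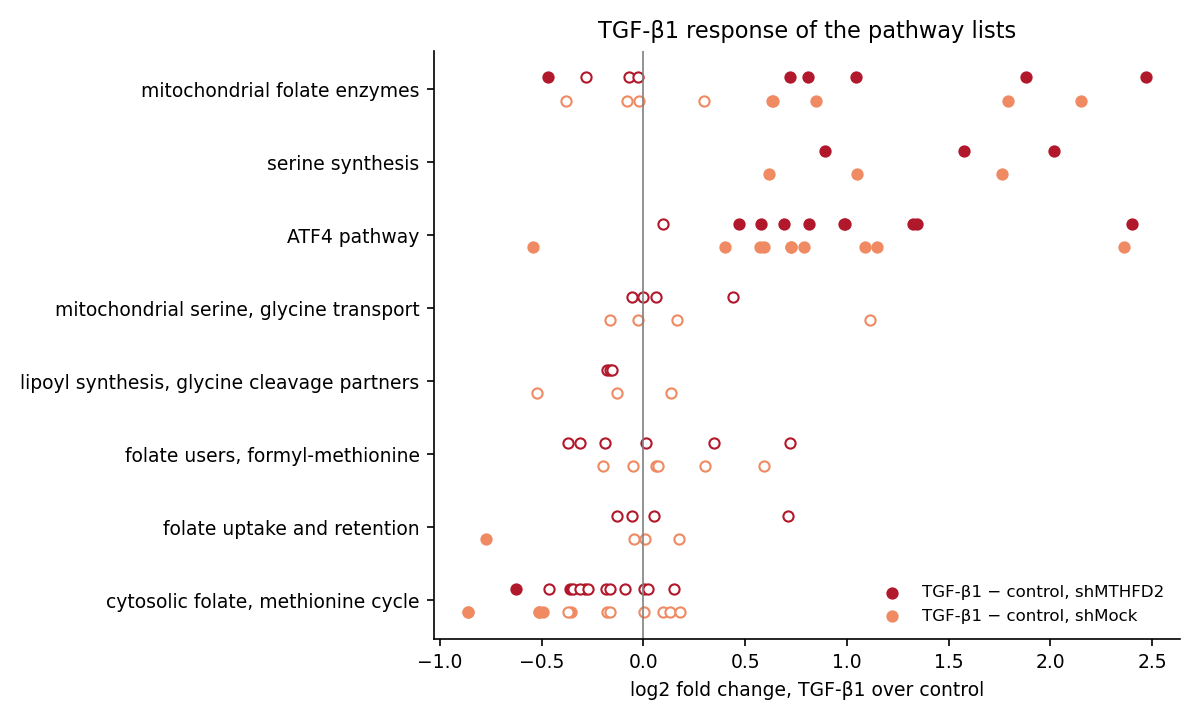
Log2 fold changes of TGF-β1 over control for each tested gene of 8 lists, in shMTHFD2 cells (upper row of a pair) and shMock cells (lower row), filled where the adjusted p of edgeR was under 0.05. Serine synthesis is filled on the higher side in both lines, cytosolic folate genes are filled on the lower side only, and 3 mitochondrial lists have no filled point.

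The genes whose pattern came closest to 3 of the enzymes were found over the 8 libraries as the root mean square difference of log2 CPM, each gene centred on its own mean. For MTHFD2 the 4 nearest were MAP3K7CL (0.30), DKK1 (0.33), PIK3AP1 (0.36) and PDGFB (0.37), against a median of 1.43 over the 11921 genes ranked. MAP3K7CL had 33.2 and 33.1 CPM in shMTHFD2 with TGF-β1, 72.3 and 69.1 CPM in shMock with TGF-β1, 7.08 and 9.15 CPM in shMTHFD2 control, and 18.2 and 20.4 CPM in shMock control. ALDH1L2 came nearest to MTHFD2 within the pathway, at 0.59 and rank 27, and SHMT2 was at rank 296. For SHMT2 the nearest were SERPINH1 (0.04), PFKFB4 (0.07), LOXL2 (0.07), GLIPR2 (0.07) and P3H1 (0.08), with MTHFD1L at rank 44 (0.13) and SLC25A32 at rank 69 (0.14). MTHFD2 was far from SHMT2 in this ranking, at rank 11278 (0.97), against a median of 0.53. Changes are not scaled in this measure, so their size counts as well as their direction. Both genes rose with TGF-β1 and stood lower in the knockdown, MTHFD2 by more. For ALDH1L2 the nearest were SLC7A1 (0.07), PSAT1 (0.11), MICAL2 (0.11), ACTG2 (0.13) and TRIB1 (0.13). MTHFD2 was at rank 458 there (0.59), against a median of 0.98. The libraries share 4 groups and their depth, so likeness here is a description of these 8 libraries and carries no test.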

How the data were processed

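Bulk RNA of 8 libraries was read from the deposited table, whose values are whole-number counts per gene although its name speaks of FPKM. The authors deposited these counts, made, per the submitters' processing notes, with GRCh38, STAR 2.7.1a and DESeq2 1.32.0 in roles left unstated. The counter, the annotation and any use of strand were not given in the sources used here. Groups came from the titles, since the genotype field of 3 shMTHFD2 samples names other genes and the extraction text another cell line. The 10 genes, the lists and the tests were chosen with earlier results of these data known.

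Counts were tested with edgeR 4.0.16 (quasi-likelihood, TMM factors of 0.914 to 1.07) in R 4.3.3, on genes averaging 1 CPM or more, in 1 fit of 8 libraries with 4 residual degrees of freedom. P-values were adjusted by Benjamini-Hochberg over the 13493 tested genes at 0.05, and SE were derived from the F statistic and are approximate. Another 2 comparisons (the averaged knockdown, and activated knockdown against resting control cells) and the sum of AMT with its neighbour were added after the data were seen. CPM use TMM-scaled library sizes, and TPM use GENCODE 29 exon unions. The script was tested on simulated data. The ratio of chi-square to degrees of freedom between replicates was 6.09 to 9.95, above counting error, and floors cover counting error only. From each list the text names up to 2 higher and 2 lower genes with the largest change per comparison, and beyond these MTHFD1, used in a ratio, and genes named as being at 0 or as overlapping another, which were chosen after their values were seen. Some genes that this rule names are not reported here. Alternatives covered scaling, DESeq2 1.42.0, the filter, offsets, a replicate block, fewer groups and each library left out.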

Additional observations from a re-analysis of the deposited data

How the results depend on the processing

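The calls for MTHFD2, ALDH1L2, SHMT2, MTHFD1L and SLC25A32 under TGF-β1 kept their direction and their side of the threshold in both lines under all 17 alternatives, and so did the knockdown calls of MTHFD2 and ALDH1L2. The replicate block left 62 of 63 results for the single genes on their side of the threshold; replicates of like number share only a number, with correlations of deviations of −0.03 to 0.09, and the calls numbered 1734 with the block, against 1762 without it, in the knockdown with TGF-β1. In resting cells they were 1530 with it, against 1543, for TGF-β1 in shMTHFD2 and shMock cells 3194 and 4753, against 3214 and 4776, and in the interaction 13, against 12. It ended the call of GCSH in activated knockdown against resting shMock cells (adjusted p = 0.0579) and that of MTRR in the knockdown with TGF-β1 (0.0512). The interaction count was 105 in DESeq2, 321 with no filter, 36 with a mean CPM of at least 5 and 21 with GC and length offsets, and 3 to 192 with 1 library left out. With 1 library left out, 841 to 1820 genes were called in the knockdown with TGF-β1 and 585 to 1681 in resting cells, and 2 to 4 of the 9 pathway genes in resting cells. With TGF-β1 the count was 841 and 1001 when shMTHFD2 TGF-β1 1 or 2 was left out, and 855 when shMock TGF-β1 1 was. In resting cells it was 637 without shMTHFD2 control 2, 973 without shMock control 1 and 585 without shMock control 2. The interaction count was 3 without shMTHFD2 control 2 or shMock TGF-β1 1, 4 without shMock control 2, 46 without shMock control 1 and 192 without shMTHFD2 control 1. Sums of AMT and its neighbour gave 0.28 and 0.48 in the knockdown with and without TGF-β1. Uncalled values changed sign in 38 cases, the summed AMT values among them. GCSH was at 0.0683 with library totals and 0.102 with GC and length offsets in the knockdown with TGF-β1, and at 0.0176 with these offsets in the interaction. AMT was at 0.0186 with these offsets for TGF-β1 in shMock cells, MTHFD2L at 0.0404 with library totals in the averaged knockdown, and MTFMT at −0.0246 with library totals and −0.0243 with upper-quartile factors in activated knockdown against resting shMock cells. The cause was not tested.

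With 1 library left out, log2 fold changes in the knockdown with TGF-β1 were −0.53 to 0.22 for MTHFD2L, −0.0506 to 0.15 for MTFMT and −0.11 to 0.0538 for GCSH. In resting cells they were −0.12 to 0.36 for MTHFD2L and −0.0016 to 0.21 for MTFMT. For TGF-β1 in shMTHFD2 cells they were −0.25 to 0.22 for MTHFD2L and −0.19 to 0.0241 for MTFMT. In shMock cells they were −0.12 to 0.63 for MTHFD2L, −0.13 to 0.0829 for MTFMT and −0.34 to 0.15 for AMT. For the interaction they were −0.66 to 0.0922 for MTHFD2L, −0.0071 to 0.17 for ALDH1L2, −0.18 to 0.0561 for MTFMT and −0.43 to 0.0592 for AMT. In the averaged knockdown they were −0.20 to 0.17 for MTHFD2L and −0.0228 to 0.0668 for GCSH, and in activated knockdown against resting shMock cells −0.0931 to 0.33 for MTHFD2L and −0.0387 to 0.0886 for MTFMT.

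Depth limits MTHFD2L, with at most 73 counts in a library, and GLDC, and with 2 libraries a group, 1 library can decide a call near the threshold.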
